A study of Macaca fascicularis with 2 samples.

Results

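The genes described here build the hyaluronan and aggrecan network of cartilage and of the nucleus pulposus (NP), the gelatinous core of the intervertebral disc. They were chosen by name. Of the 8 genes named, 7 were among the 21371 genes of the count matrix, namely the core proteins *ACAN* (aggrecan) and *VCAN* (versican), the link proteins *HAPLN1* and *HAPLN3*, the hyaluronan synthases *HAS2* and *HAS3*, and the hyaluronan receptor *CD44*. *HAS1* was not analysed here. The cells came from 2 cynomolgus monkeys (*Macaca fascicularis*), labelled as wild-type males 3 years old and given no treatment in the labels. Articular cartilage (AC) was taken from the femoral condyle of both animals and NP from a lumbar disc of 1 of them, live dissociated cells were sorted, and the cells of all samples went into 1 library, in which the RNA of single cells was captured on barcoded beads and the cDNA amplified by the TAS-seq method. Each cell carried 1 of 4 surface tags (A951 to A954), whereas the labels list 3 tissue samples. No source used here pairs tags with tissues, so values are given by tag and AC and NP cells cannot be told apart by origin.

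Aggrecan is a large proteoglycan whose sulfated sugar chains hold water and let cartilage and NP resist compression. It does not lie free in the matrix but binds through its N-terminal domain to long chains of hyaluronan, and link protein locks the complex, so that many aggrecan molecules line up on 1 hyaluronan chain. Hyaluronan is spun out of the cell by synthases in the plasma membrane, and CD44 at the cell surface holds this coat to the cell or helps take hyaluronan up. Versican belongs to the same family of hyaluronan-binding proteoglycans and is best known from developing and soft connective tissue. Notochordal cells (NCs) are the large vacuolated cells that remain in the young NP from the embryonic notochord, and they carry the transcription factor TBXT (brachyury) and the cytokeratin KRT19.

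The library held 1354369622 reads on genes in 5723 cells. A single tag and the study's limits on quality left 5653 cells, and no cell barcode was shared between tags. Cells with 5 or more reads of *KRT19* and 5 or more of *TBXT* were taken as NCs. There were 310 such cells (5.48%), and the other 5343 cells are called the other cells. The median NC had 186370.5 reads on 4061 genes and the median other cell 199072 reads on 3819 genes, so both groups were of similar depth. By tag, NCs made up 67 of the cells of A951 (6.73%), 236 of A952 (21.0%), 5 of A953 (0.363%) and 2 of A954 (0.0928%). The comparison therefore rests almost wholly on A951 and A952, and the 7 NCs of the remaining tags are given for completeness. The 5 NCs of A953 were also far deeper, with a median of 494207 reads.

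The name was checked on genes that the gate did not use. *CDH2* (N-cadherin), a known NC marker, stood at 119.6 reads per 1000000 reads of the pooled cells (rpm) in the NCs and 1.16 rpm in the other cells, and *NCAM1* at 506.5 and 25.2 rpm. Further NC markers, *KRT8*, *KRT18* and *CD24*, were not analysed here. The 7 chondrocyte markers measured summed to 5632 rpm in the NCs and 37676 rpm in the other cells, and *COL2A1*, the main cartilage collagen, had 1269 and 20072 rpm. Of the 7, *SOX9* alone went the other way, with 1120 rpm in the NCs and 346.1 rpm in the other cells. By tag the chondrocyte sum in the NCs was 6356 rpm in A951, 5206 rpm in A952, 11876 rpm in A953 and 1293 rpm in A954. Fibroblast markers (5 of 5 measured) summed to 1042 rpm in the NCs, most of it *COL1A2* (852.3 rpm), and to 3769 rpm in the other cells, where *COL3A1* led (1888 rpm). The 8 immune markers summed to 28.2 and 23.4 rpm, the 4 endothelial markers measured to 3.07 and 2.60 rpm, and the 4 markers of pericytes and smooth muscle to 92.9 rpm in the NCs, led by *ACTA2* (70.7 rpm), and 35.2 rpm in the other cells. Of these 4, *ACTA2* and *RGS5* were higher in the NCs, whereas *PDGFRB* (12.7 against 23.5 rpm) and *MYH11* (0.954 against 2.17 rpm) were lower. Of the immune markers, *CD68* was lower in the NCs (9.64 against 17.4 rpm), whereas *CD14* (7.46 against 3.15 rpm), *LYZ* (5.21 against 0.714 rpm) and *CD3E* (4.39 against 1.05 rpm) were higher, and the B cell marker *MS4A1* was at 0. The part of these cells in the results below was not tested.

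With 1 library there are no replicate libraries. No test was made and no p-value is given. A level is the reads of a gene summed over a group of cells per 1000000 of all their reads, with an exact Poisson 95% interval, and a share of cells has an exact binomial 95% interval. The reads carry no molecular identifiers and PCR copies count as separate reads, so these intervals cover the counting of reads only. They do not cover the error of counting molecules, and they leave out the spread between cells and animals. Levels are not per length, so those of different genes say nothing of their relative expression and are set side by side only as numbers of reads. A gene was counted as higher or lower when its level differed by 2-fold or more (a log2 ratio of 1 or more in size), among genes with a read in at least 10% of the cells of either group.

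*ACAN* and *CD44* were higher in the NCs, and *VCAN*, *HAS2*, *HAPLN1* and *HAPLN3* were lower. Thus 2 of the 6 genes that passed the filter on detection were higher and 4 were lower, while 24.4% of the 9964 genes compared were higher by the same rule and 11.4% were lower. *HAS3* was too rarely detected to be counted. The median log2 ratio of the 6 genes was -1.71, and that of all genes compared was 0.30. Within A951, where 27% of genes were higher and 17.7% lower, and within A952, where 25% were higher and 12.4% lower, each of the 6 genes kept its direction and stayed past 2-fold.

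**Figure D1:**
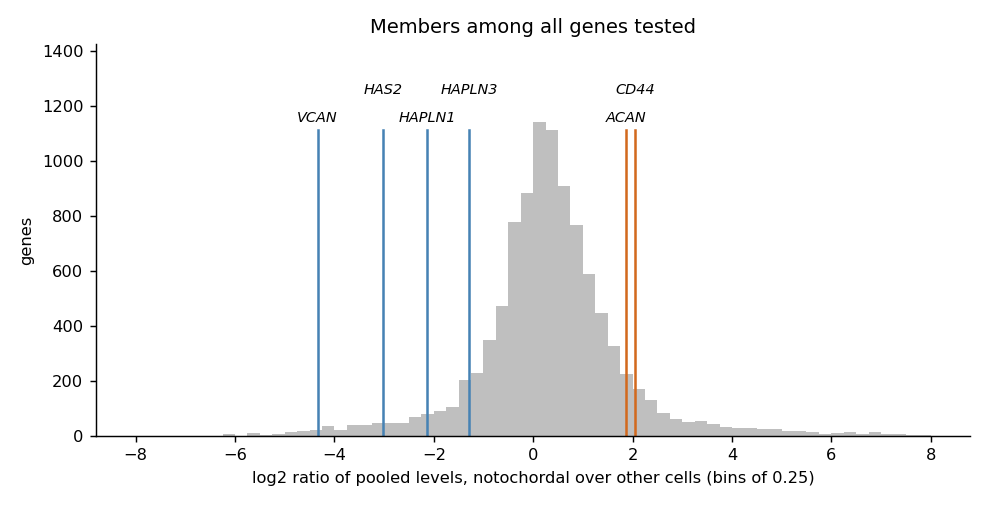
Histogram of the log2 ratio of pooled levels, NCs over other cells, for the 9964 genes compared (x axis, bins of 0.25; y axis, number of genes), with vertical lines at the 6 genes that passed the filter. *ACAN* (1.86) and *CD44* (2.05) lie on the high side at percentiles 90.4 and 91.9, and *VCAN* (-4.34) lies at percentile 0.743.

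*ACAN* encodes the core protein that carries the chondroitin and keratan sulfate chains. Its level was 12980 rpm in the NCs of A951, 15007 rpm in those of A952, 10863 rpm in those of A953 and 2267 rpm in those of A954. Its level in the other cells was 4718 rpm in A951, 4906 rpm in A952, 3187 rpm in A953 and 3861 rpm in A954. The NCs of 3 tags lay above the other cells of every tag, and the 2 NCs of A954 lay below them. Pooled over tags, the NCs had 14440 rpm (14411 to 14469) and the other cells 3968 rpm (3964 to 3971), a 3.64-fold difference with a log2 ratio of 1.86. Within tags the log2 ratio of *ACAN* was 1.46 in A951 and 1.61 in A952.

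Nearly every cell had *ACAN* reads, with all 310 NCs and 99.8% of the rest, and the groups differed in the amount per cell. The median NC had 10520 rpm of *ACAN* and the median other cell 3642 rpm. Of the NCs, 275 (88.7%) lay above that median, and 62.6% lay above the 90th percentile of the other cells (7827 rpm). The 10% of the NCs with the most *ACAN* reads held 35.7% of them, and the same 10% of the other cells held 32.3%, so a few cells did not carry the level in either group.

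*VCAN* showed the reverse. Its level in the NCs was 6.64 rpm in A951, 1.32 rpm in A952 and 35.7 rpm in the 5 cells of A953, and no read was found in the 2 cells of A954, for which the upper Poisson limit is 14.0 rpm. In the other cells it was 96.0 rpm in A951, 81.3 rpm in A952, 61.1 rpm in A953 and 63.5 rpm in A954. The NCs of every tag lay below the other cells of every tag. Pooled, *VCAN* had 3.48 rpm (3.05 to 3.96) in the NCs and 70.5 rpm (70.0 to 70.9) in the other cells, a 20.2-fold difference (log2 ratio -4.34). The log2 ratio was -3.85 within A951, where 1 NC held 67.9% of the *VCAN* reads of the NCs, and -5.94 within A952. It was -2.64 when A952 was left out, and -4.98 without A953, where 1 of the 5 NCs held 88.9% of their *VCAN* reads. With 5 reads of the gate genes added together as the gate it was -1.82, and the difference of the means of log2(rpm + 1) was -1.54.

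Few NCs had more than a trace of *VCAN*. A read was seen in 24.5% of the NCs (19.8 to 29.7) and in 42.6% of the other cells (41.3 to 44.0), and 5 or more reads were seen in 3 NCs (0.968%) and in 1199 other cells (22.4%). Free RNA of other cells can reach a cell barcode. Of the genes that were far higher in the other cells, *ASPN*, a small matrix protein of chondrocytes, had a read in 38.7% of the NCs and 5 or more in 0.323%, *CILP*, another cartilage matrix protein, in 38.7% and 3.23%, *IL17B*, a cytokine, in 18.7% and 0.323%, and *BMP2*, a growth factor, in 59.0% and 7.74%. These genes had 131.0 rpm (*IL17B*) to 717.1 rpm (*BMP2*) in the other cells, so they gave more reads there than *VCAN*. Of genes that gave fewer, *CXCL1*, a chemokine (48.1 rpm), had a read in 11.0% of the NCs and *PDGFRA*, a growth factor receptor (45.1 rpm), in 11.9%, each with 5 or more in 0.323%. The shares of *VCAN* thus lay above those of *CXCL1* and *PDGFRA* and within the ranges of the genes with more reads. The log2 ratio of *VCAN* was less far below 0 than those of *ASPN* (-6.27), *CILP* (-5.72), *IL17B* (-6.57) and *BMP2* (-4.77). How much of it came from free RNA was not tested. A single NC held 31.3% of all *VCAN* reads of the NCs. In the other cells *VCAN* was itself uneven, since 79.4% of its reads lay in 10% of the cells and the median cell had none.

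**Figure D2:**
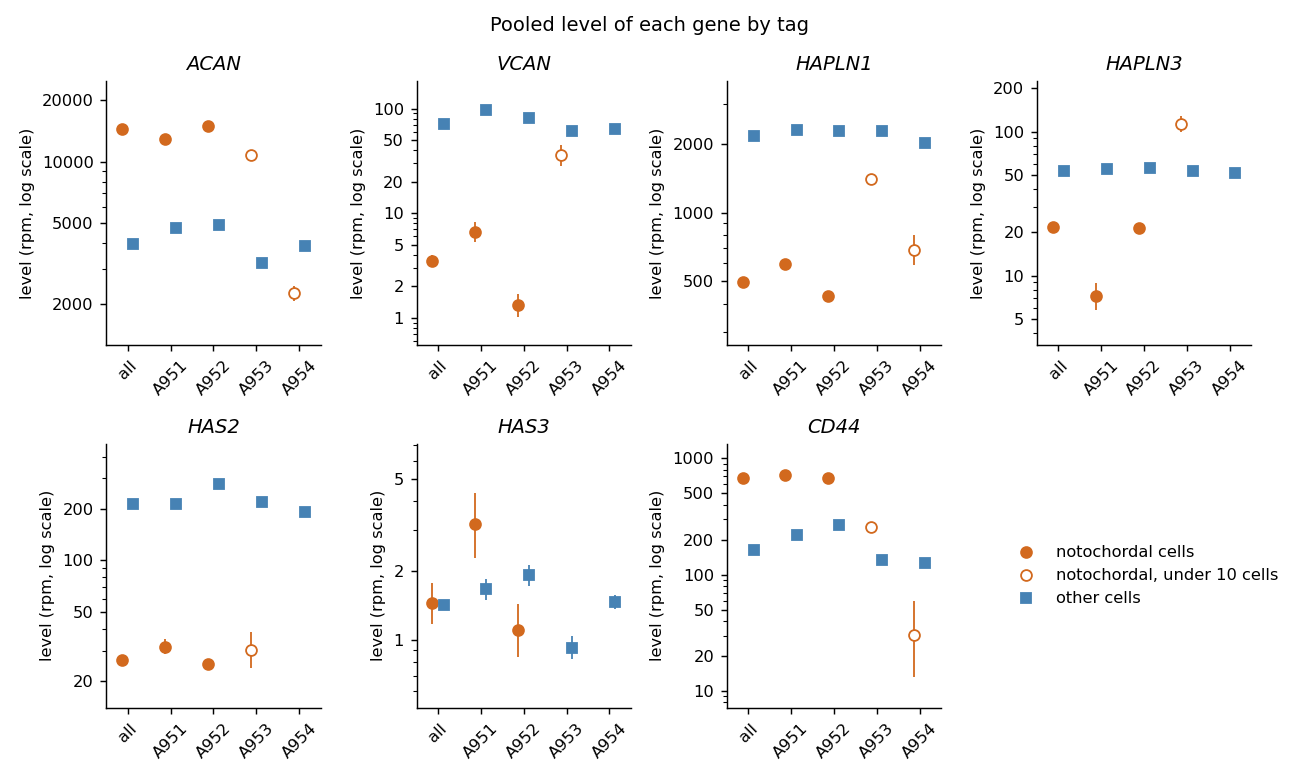
Pooled level of each gene in rpm (y axes, log scale) over all tags and by tag (x axes), with exact Poisson 95% intervals, for NCs (circles, open where under 10 cells) and other cells (squares); groups with no read are not drawn. In A951 and A952 *ACAN* and *CD44* lie higher in the NCs and *VCAN*, *HAPLN1*, *HAPLN3* and *HAS2* lower, and the other cells of the 4 tags lie close together for *HAPLN1* (2025 to 2320 rpm).

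*HAPLN1*, the main link protein of cartilage, stabilizes the bond between aggrecan and hyaluronan. In the NCs it stood at 594.8 rpm in A951, 433.8 rpm in A952, 1410 rpm in A953 and 688.4 rpm in A954. The other cells had 2320, 2281, 2290 and 2025 rpm in the same order. All 4 NC values lay below all 4 values of the other cells, which differed among themselves by at most 1.15-fold. Pooled, *HAPLN1* had 498.1 rpm (492.7 to 503.5) in the NCs and 2176 rpm (2174 to 2179) in the other cells, a 4.37-fold difference (log2 ratio -2.13, with -1.96 within A951 and -2.39 within A952). With 1 read of each gate gene as the gate, *HAPLN1* was at -0.88 and no longer past 2-fold.

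The gene was nonetheless read in 99.0% of the NCs and in 99.7% of the other cells, and 89.4% of the NCs had 5 or more *HAPLN1* reads. The median NC had 352.2 rpm and the median other cell 1893 rpm. Of the NCs, 304 (98.1%) lay below the median of the other cells, and 70.3% lay below their 10th percentile (569.3 rpm). The 2 groups of cells thus overlapped little for *HAPLN1*, as the plot of levels per cell shows.

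Because *ACAN* was higher and *HAPLN1* lower in the same cells, the number of *ACAN* reads per *HAPLN1* read differed by more than either gene. It was 29.0 over the NCs and 1.82 over the other cells. By tag it was 21.8, 34.6, 7.70 and 3.29 in the NCs of A951 to A954, and 2.03, 2.15, 1.39 and 1.91 in the other cells. Every NC value lay above every value of the other cells. Cell by cell, 254 of the NCs (81.9%) had a ratio above 10.2, the 95th percentile of the other cells. The ratio is of reads and not of molecules, so only its difference between groups can be read.

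*HAPLN3* encodes a link protein found in more tissues than *HAPLN1*. Its level in the NCs was 7.21 rpm in A951, 21.4 rpm in A952 and 113.3 rpm in A953, with no read in A954. In the other cells it was 54.7, 56.2, 53.5 and 51.6 rpm. The NCs of A951 and A952 lay below the other cells and the 5 of A953 lay above them, where 2 cells held all the *HAPLN3* reads. Pooled, it had 21.8 rpm (20.7 to 23.0) in the NCs and 53.2 rpm (52.8 to 53.6) in the other cells (log2 ratio -1.28, with -2.92 within A951 and -1.39 within A952).

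Few cells of either group held most of the *HAPLN3* reads. The top 10% of the NCs held 96.5% and the top 10% of the other cells 87.8%. A read was seen in 25.5% of the NCs, and 18 NCs (5.81%, 3.48 to 9.02) had 5 or more reads. Both shares lay above those of *CXCL1* and *PDGFRA*, which gave about as many reads in the other cells as *HAPLN3*, and within the ranges of *ASPN*, *CILP*, *IL17B* and *BMP2*. How much of the *HAPLN3* of the NCs came from free RNA was not tested. In the other cells 38.0% had a read and 17.0% had 5 or more. When the mean of log2(rpm + 1) over cells was used in place of the pooled level, the difference of *HAPLN3* was -0.85, and with 1 read of each gate gene as the gate its log2 ratio was -0.58, neither past 2-fold.

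**Figure D3:**
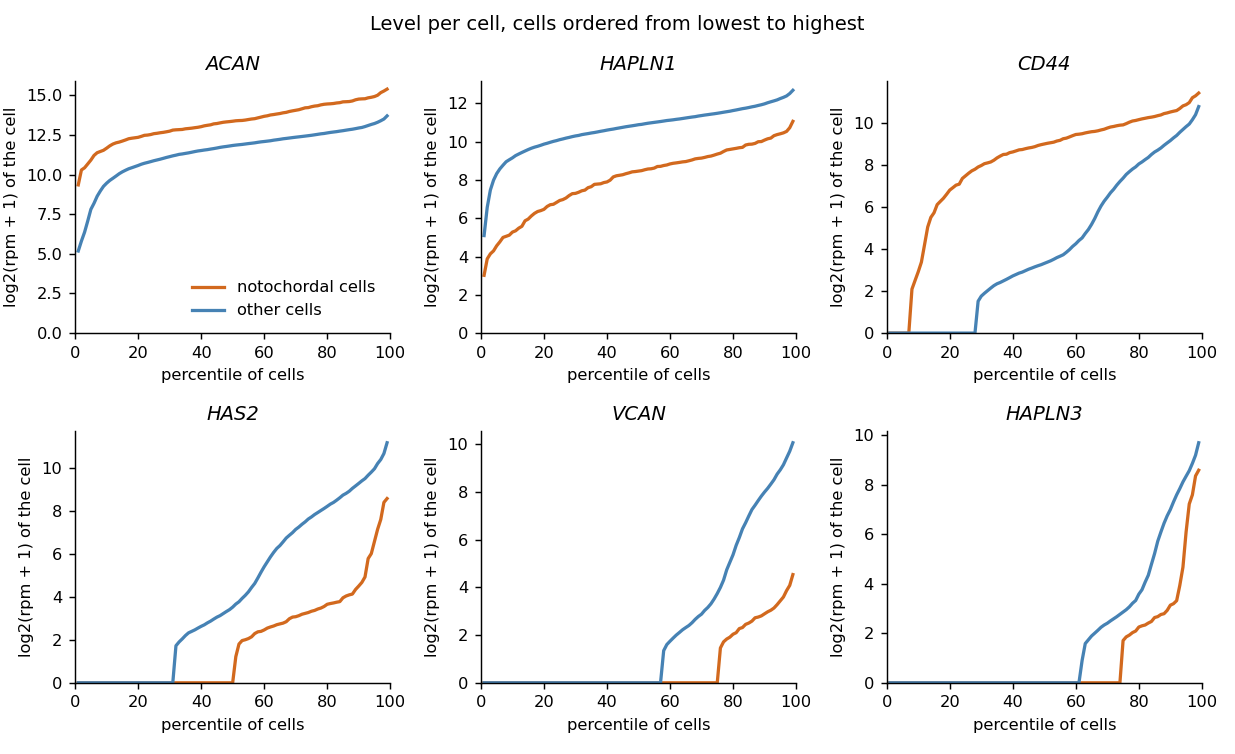
Level of 6 genes in single cells as log2(rpm + 1) (y axes), with the cells of each group ordered from the lowest to the highest (x axes, percentile of cells), for NCs and other cells. The curves of *ACAN* and *HAPLN1* run apart over the whole range, *CD44* leaves 0 early in the NCs (92.3% of the cells have a read), and *HAPLN3* and *VCAN* are at 0 in most cells of both groups.

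*HAS2* is the synthase that makes most of the hyaluronan of cartilage. In the NCs its level was 31.6 rpm in A951, 25.1 rpm in A952 and 30.4 rpm in A953, with no read in the 2 cells of A954. The other cells had 212.5 rpm in A951, 277.5 rpm in A952, 219.4 rpm in A953 and 189.8 rpm in A954. The NCs of each tag lay far below the other cells of every tag. Pooled, *HAS2* had 26.4 rpm (25.1 to 27.6) in the NCs and 213.5 rpm (212.7 to 214.3) in the other cells, an 8.10-fold difference (log2 ratio -3.02, with -2.75 within A951 and -3.47 within A952). The ratio was smaller under looser gates, at -1.36 with 1 read of each gate gene, -1.91 with 5 reads of both added together and -1.98 with 5 of either.

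A *HAS2* read was seen in 49.0% of the NCs (43.3 to 54.7), more than for *ASPN*, *CILP* or *IL17B* and less than for *BMP2*, and in 68.9% of the other cells (67.6 to 70.1). At least 5 reads were seen in 12.3% of the NCs, more than for any of these 4 genes, and in 43.5% of the other cells. Of the fibroblast markers far higher in the other cells, *COL3A1* had 5 or more reads in 73.2% of the NCs. *COL1A1* had them in 11.3%, *THY1* in 11.0% and *PDGFRA* in 0.323%. How much of the *HAS2* of the NCs came from free RNA was not tested. Of the NCs, 21.3% lay above the median other cell (10.5 rpm), and none of the 310 lay above the 90th percentile of the other cells (619.9 rpm). *HAS2* was spread unevenly in both groups, with 86.6% of the reads in the top 10% of the NCs and 65.6% in the top 10% of the other cells.

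*HAS3*, a synthase of shorter hyaluronan chains, was near the limit of detection. It had 1.45 rpm (1.18 to 1.77) in the NCs and 1.42 rpm (1.35 to 1.48) in the other cells, with a read in 4.19% and 4.23% of the cells. Pooled, the intervals of the 2 levels overlapped, with 44.8% of the *HAS3* reads of the NCs in 1 cell, and the tags went opposite ways. In A951 the NCs had 3.20 rpm, all of it 39 reads in 1 cell, and the other cells 1.66 rpm. In A952 the NCs had 1.11 rpm and the other cells 1.91 rpm.

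*CD44* encodes the receptor through which cells bind hyaluronan. Its level in the NCs was 713.9 rpm in A951, 683.9 rpm in A952 and 259.3 rpm in A953, and 8 reads in 1 cell gave 30.4 rpm in A954. In the other cells it was 220.4 rpm in A951, 270.3 rpm in A952, 133.5 rpm in A953 and 125.1 rpm in A954. The NCs of A951 and A952 lay above the other cells of every tag, those of A953 above the other cells of their own tag, and those of A954 below. Pooled, *CD44* had 672.3 rpm (666.0 to 678.5) in the NCs and 162.7 rpm (162.0 to 163.4) in the other cells, a 4.13-fold difference (log2 ratio 2.05). The log2 ratio was smaller within A951 (1.70) and within A952 (1.34).

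Most NCs and a minority of the other cells had clear *CD44*. A read was seen in 92.3% of the NCs (88.7 to 95.0) and in 71.4% of the other cells (70.2 to 72.6), and 5 or more reads in 86.8% and 38.5%. The median NC had 509.2 rpm of *CD44* and the median other cell 8.96 rpm, and 89.0% of the NCs lay above the latter. The top 10% of the other cells held 63.6% of their *CD44* reads, and their 90th percentile was 569.4 rpm, a value that 45.5% of the NCs exceeded. The range of the 2 groups therefore overlapped at the high end, and the difference lay in how many cells reached it. On the mean of log2(rpm + 1) the difference was 4.01.

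The number of *CD44* reads per *HAS2* read was 25.5 over the NCs and 0.762 over the other cells. It was 22.6 in the NCs of A951 and 27.3 in those of A952, and 1.04 and 0.974 in the other cells of these tags. At least 5 reads of all of *ACAN*, *HAPLN1*, *HAS2* and *CD44* were found together in 35 NCs (11.3%, 7.99 to 15.4) and in 976 other cells (18.3%, 17.2 to 19.3). As many NCs, 35, had 5 or more reads of *HAS2* and *CD44*.

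The shares were also compared at equal depth. When each cell was thinned to 50000 reads, which left out 11 NCs and 196 other cells, a read was seen in 9.03% of the NCs and 28.8% of the other cells for *VCAN*, in 24.4% and 52.5% for *HAS2*, in 11.0% and 23.6% for *HAPLN3*, and in 91.6% and 50.3% for *CD44*. The direction was that of the unthinned shares for each of these 4 genes. *ACAN* had a read in 100% and 99.8% of the thinned cells and *HAPLN1* in 97.0% and 99.8%.

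Cells with 5 or more reads of only 1 of the gate genes lay between the groups. There were 85, counted among the other cells, with 324.5 rpm of *KRT19* and 58.3 rpm of *TBXT*. They had 7760 rpm of *ACAN*, 476.2 rpm of *CD44*, 1522 rpm of *HAPLN1*, 156.5 rpm of *HAS2*, 45.9 rpm of *VCAN* and 31.4 rpm of *HAPLN3*. Each of these 6 levels lay between that of the NCs and that of all other cells. Without these 85 cells, *ACAN* in the other cells of A952 was 4589 rpm and *CD44* 248.8 rpm.

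The rest of the pathway was read from a list of 49 genes, of which 48 were in the matrix and 32 passed the filter on detection. Of the 32, 5 were higher in the NCs, 9 were lower and 18 lay within 2-fold, and their median log2 ratio was -0.06 beside 0.30 for all genes compared. Over all genes compared 24.4% were higher and 11.4% lower, and the counts by role below are too small to set against these shares. Of the 14 genes past 2-fold, *TLR4*, *TLR2* and *ADAMTS5* passed the filter only through the cells in which they were higher. The list held other core and link proteins, enzymes that break hyaluronan down, other receptors and families with proteins that crosslink hyaluronan. It also held enzymes that supply its sugars, proteases that cut aggrecan and versican, linkers of CD44 to the cytoskeleton and SOX factors that drive *ACAN*.

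**Figure D4:**
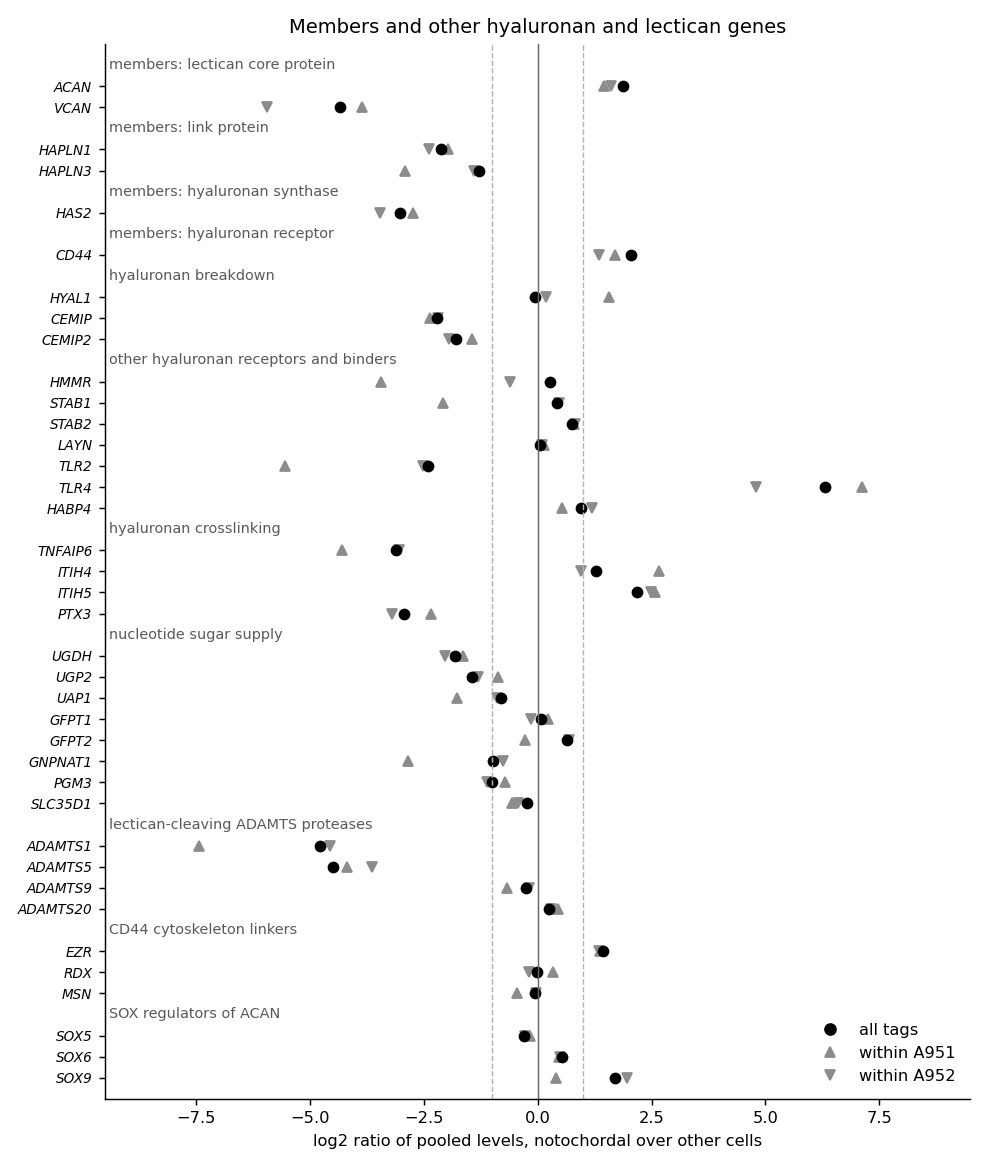
Log2 ratio of pooled levels, NCs over other cells (x axis), for the 6 genes that passed the filter and the 32 other pathway genes that did (y axis, by role), over all tags (circles) and within A951 and A952 (triangles); dashed lines mark 2-fold. Of the circles, *ADAMTS1* (-4.78) and *ADAMTS5* (-4.50) lie farthest to the left and *TLR4* (6.30) farthest to the right. Of these genes, *ADAMTS5* and *TLR4* passed the filter only through the cells in which they were higher.

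Of the 8 genes that supply the nucleotide sugars of hyaluronan, 2 were lower in the NCs and 6 lay within 2-fold. *UGDH*, which makes the UDP-glucuronic acid used for hyaluronan and for the chains on aggrecan, had 142.5 rpm in the NCs and 500.2 rpm in the other cells (log2 ratio -1.81, with -1.63 within A951 and -2.03 within A952). *UGP2*, which makes the UDP-glucose that *UGDH* converts, had 626.2 and 1708 rpm (-1.45, with -0.88 within A951 and -1.30 within A952). On the side of *N*-acetylglucosamine, *GFPT2* had a log2 ratio of 0.65 (-0.27 within A951 and 0.68 within A952), *UAP1* of -0.80 (-1.78 and -0.90) and *GNPNAT1* of -0.98 (-2.85 and -0.76), so that the last 2 were past 2-fold within A951. *PGM3*, also among the 8, had 145.0 and 289.8 rpm (-0.998, with -0.73 within A951 and -1.11 within A952). It was just short of 2-fold when pooled and past it within A952.

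Of the genes for hyaluronan breakdown, 3 of 7 passed the filter. *CEMIP*, a hyaluronidase-like protein that starts hyaluronan breakdown outside lysosomes, had 4.51 rpm in the NCs and 20.8 rpm in the other cells (log2 ratio -2.21), and *CEMIP2*, its transmembrane relative, had 35.2 and 122.7 rpm (-1.80). Both were lower within A951 (-2.36 and -1.44) and within A952 (-2.19 and -1.96). The lysosomal hyaluronidase gene *HYAL1* had 24.5 and 25.7 rpm (-0.06), but the log2 ratio was 1.56 within A951 and 0.18 within A952.

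Of the genes listed with hyaluronan crosslinking, chosen by family, 4 passed the filter, with 2 higher and 2 lower. *TNFAIP6* (TSG-6), which transfers heavy chains onto hyaluronan, had 10.6 rpm in the NCs and 91.1 rpm in the other cells (log2 ratio -3.10), and *PTX3*, a pentraxin that joins the same complexes, had 18.0 and 138.6 rpm (-2.95). Of the inter-alpha-trypsin inhibitor heavy chain family, *ITIH5* (53.0 and 11.6 rpm, 2.19) and *ITIH4* (11.0 and 4.54 rpm, 1.27) were higher. The log2 ratio of *ITIH5* was 2.56 within A951 and 2.49 within A952. That of *ITIH4* was 2.67 and 0.95, the latter short of 2-fold.

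Of the proteases of the ADAMTS family that cut aggrecan and versican, 2 of the 4 that passed the filter were lower in the NCs. *ADAMTS1* had 2.80 rpm in the NCs and 76.8 rpm in the other cells (log2 ratio -4.78). *ADAMTS5*, a major aggrecanase of cartilage, had 33 reads (0.499 rpm) in the NCs and 11.3 rpm in the other cells (-4.50). With a read in 10.5% of the other cells and 8.39% of the NCs, *ADAMTS5* passed the filter through the other cells alone, so the filter favoured that direction. *ADAMTS9* and *ADAMTS20* lay within 2-fold, and *ADAMTS4* had 0 reads in the NCs and 6 in the other cells, too few to compare.

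Among other receptors, 1 of 7 was higher and 1 lower. *TLR4*, an innate immune receptor that has been linked to hyaluronan fragments, had 33.3 rpm in the NCs and 0.423 rpm in the other cells (log2 ratio 6.30, with 7.12 within A951 and 4.80 within A952), with a read in 10% of the NCs and 2.04% of the other cells. *TLR2* had 2.57 and 13.6 rpm (-2.40), with a read in 7.42% and 15.3% of the cells. Each passed the filter only through the cells in which it was higher, so the filter favoured these directions. The part of the immune markers given above in the level of *TLR4* was not tested. Of the linkers that tie CD44 to actin, *EZR* (ezrin) was higher, with 802.4 rpm in the NCs and 296.0 rpm in the other cells (1.44, with 1.37 within A951 and 1.35 within A952), whereas *RDX* (-0.02) and *MSN* (-0.06) were near 0 on the log2 scale. Of the SOX factors that act on the *ACAN* enhancers, *SOX9* had 1120 and 346.1 rpm (1.69), but the log2 ratio was 0.40 within A951 and 1.97 within A952. *SOX5* (-0.30) and *SOX6* (0.53) lay within 2-fold. The other members of the families, *BCAN*, *NCAN*, *HAPLN2* and *HAPLN4*, did not pass the filter.

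The genes also varied among the other cells. Cells with 5 or more reads of both *ASPN* and *CILP* numbered 885, of which 59 were in A951, 53 in A952, 293 in A953 and 480 in A954. They were deeper, with a median of 289482 reads against 186912 in the remaining 4458. *CD44* stood at 50.9 rpm in these cells and 196.8 rpm in the rest (log2 ratio -1.95), *VCAN* at 22.2 and 85.2 rpm (-1.94), *HAS2* at 111.2 and 244.7 rpm (-1.14) and *ACAN* at 2618 and 4379 rpm (-0.74). *HAPLN1* (-0.28) and *HAPLN3* (0.16) differed less. For *CD44* the levels by tag were 123.2, 110.1, 38.3 and 44.1 rpm in the positive cells and 230.5, 286.2, 172.4 and 159.0 rpm in the rest, so that the positive cells were lower in every tag. The same held by tag for *VCAN*, *HAS2* and *ACAN*.

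The 173 other cells with 5 or more *IL17B* reads (41, 45, 58 and 29 by tag) differed in another way. They too were deeper, with a median of 374846 reads against 195671. *VCAN* was at 1.57, 3.55, 8.56 and 11.6 rpm in the positive cells of A951 to A954 and at 104.5, 88.9, 65.4 and 64.9 rpm in the rest, without overlap. Pooled, that was 6.50 and 74.3 rpm (log2 ratio -3.52). *HAS2* was higher in the positive cells of every tag, with 280.1, 579.1, 654.1 and 490.2 rpm against 206.4, 248.1, 184.0 and 181.6 rpm (pooled 518.4 and 195.1 rpm, 1.41). *CD44* had 291.9 and 154.9 rpm (0.91), and was higher in the positive cells of every tag. The remaining genes lay within 2-fold, with log2 ratios of 0.59 for *HAPLN3*, 0.52 for *HAPLN1* and 0.16 for *ACAN*. The cells positive for *IL17B* thus had little *VCAN* and more *HAS2*, whereas the cells positive for *ASPN* and *CILP* had less of both.

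**Figure D5:**
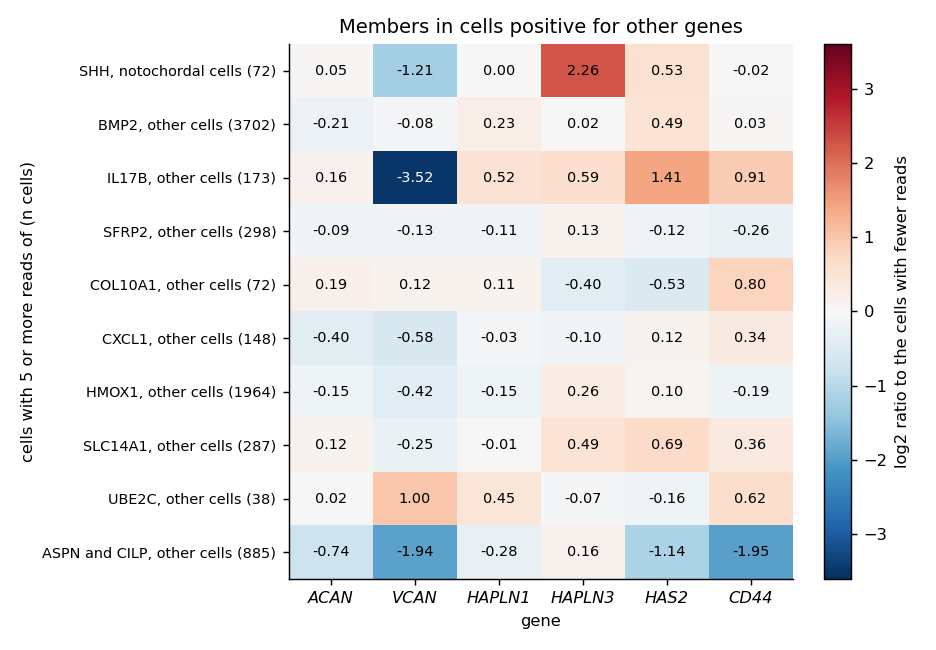
Log2 ratio of the pooled level of each gene (x axis) in cells with 5 or more reads of the gene named on the y axis over cells with fewer, within the NCs for *SHH* and within the other cells for the rest, with the number of positive cells in brackets. *VCAN* is lowest beside *IL17B* (-3.52), and *CD44* (-1.95) and *VCAN* (-1.94) are both low beside *ASPN* and *CILP*.

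The 38 other cells with 5 or more reads of *UBE2C*, a gene of dividing cells, had 139.7 rpm of *VCAN* against 69.6 rpm (log2 ratio 1.00), but in A952 the positive cells were lower (66.0 against 81.6 rpm). *BMP2* (3702 cells), *SFRP2* (298), a WNT antagonist, *COL10A1* (72), the collagen of hypertrophic chondrocytes, *CXCL1* (148), *HMOX1* (1964), a heme-degrading stress enzyme, and *SLC14A1* (287), a urea transporter, gave log2 ratios of the 6 genes between -0.58 (*VCAN* beside *CXCL1*) and 0.80 (*CD44* beside *COL10A1*), with the rarely detected *HAS3* left out. *PRG4* (lubricin) had 5 or more reads in 5328 of the 5343 other cells. The 15 with fewer were shallow (a median of 39287 reads) and had 0 *VCAN* reads. *CD44* was at 162.8 rpm in the 5328 and 62.3 rpm in the 15 (1.39). All *CD44* reads of the 15 were in A951, where they gave 226.7 rpm against 220.4 rpm in the positive cells.

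Within the NCs, the 72 cells with 5 or more reads of *SHH*, the hedgehog ligand of notochord, were compared with the other 238. *ACAN* (log2 ratio 0.05), *HAPLN1* (0.00) and *CD44* (-0.02) hardly differed. *HAPLN3* had 50.8 rpm in the cells positive for *SHH* and 10.6 rpm in the rest (2.26), with 53.3 and 1.29 rpm in A951 and 42.7 and 11.5 rpm in A952. A single cell held 63.6% of the *HAPLN3* reads of the NCs of A951. A *HAPLN3* read was seen in 38.9% (27.6 to 51.1) and 21.4% (16.4 to 27.2) of these cells. The positive cells had a median of 226388 reads and the rest 173339, and only 9 of them were in A951. *HAS2* had 33.9 and 23.4 rpm (0.53), and *VCAN* had 1.79 and 4.14 rpm (-1.21), but in A952, which held 62 of the 72 cells, it had 1.60 and 1.20 rpm.

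Likeness across cells was described by Pearson's r of log2(rpm + 1), with no p, since the cells share 1 library and r also follows depth. Among the 5343 other cells, the genes most like *ACAN* of 9307 genes were the cartilage collagens *COL11A2* (r = 0.63), *COL2A1* (0.62) and *COL9A2* (0.61). *HAPLN1* was most like *COL9A2* (0.34), *COL11A1* (0.34) and *BGN* (0.33), the small proteoglycan biglycan. Of the pairs within the set, *ACAN* and *HAPLN1* had the highest r in these cells (0.30), and 24 of the 9307 genes had a higher r with *ACAN*. *ACAN* and *VCAN* followed with 0.20. In the 310 NCs the r of *ACAN* with *HAPLN1* was 0.09, and 1552 of 9728 genes had a higher one.

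In the NCs *ACAN* was most like *COL11A2* (r = 0.50), *FN1* (fibronectin, 0.41) and *COL1A2* (0.41). *COL11A2* thus led for *ACAN* in both groups of cells. The sparser genes had lower values. Among the other cells the first 3 for *CD44* were *CP* (0.27), *FRZB* (0.27), a secreted WNT antagonist, and *CPZ* (0.20). For *HAS2* they were *CHAD* (0.22), *PCOLCE2* (0.21) and *COL9A1* (0.21), for *VCAN* they were *CPXM1* (0.20), *COL14A1* (0.19) and *COL11A2* (0.19), and for *HAPLN3* they were *MFGE8* (0.15), *WDR1* (0.14) and *FGFBP2* (0.14). In the NCs the highest r of *HAS2* was 0.31 with *CILP2*, that of *HAPLN1* 0.28 with *SNRPA*, that of *VCAN* 0.28 with *HHIP*, that of *HAPLN3* 0.27 with *LRP6* and that of *CD44* 0.25 with *ATP1B3*. Such weak values in sparse counts are given as a description only. The r of *HAS2* with the number of genes detected per cell was itself 0.38 in the NCs and 0.24 in the other cells.

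Some genes of the set form neighbouring pairs in the genome. In the RefSeq annotation of the T2T-MFA8v1.1 assembly, which was used here for gene order only, *ACAN* lies beside *HAPLN3* and *VCAN* beside *HAPLN1*, with 0 protein-coding genes between them in either pair. *ACAN* was higher in the NCs and *HAPLN3* lower, and their r was 0.01 in the other cells and 0.11 in the NCs. *VCAN* and *HAPLN1* were both lower, with r of 0.13 and 0.03.

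Across the tags, the other cells differed little in most of these genes. The highest tag lay above the lowest by 1.09-fold for *HAPLN3*, 1.15-fold for *HAPLN1*, 1.46-fold for *HAS2*, 1.54-fold for *ACAN*, 1.57-fold for *VCAN* and 2.16-fold for *CD44*. For *CD44*, *ACAN* and *VCAN* the other cells of A951 and A952, the tags with most NCs, lay above those of A953 and A954. When the 85 cells with 5 or more reads of 1 gate gene were left out, the values of *CD44* were 218.2, 248.8, 134.6 and 122.9 rpm, a 2.02-fold range. The share of cells with 5 or more *CD44* reads was likewise higher in A951 and A952, with 44.7% in A951, 47.9% in A952, 34.0% in A953 and 34.9% in A954. Which tissue or animal each tag held, and so whether these gaps follow either, could not be told apart.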

How the data were processed

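Single cells of AC and NP were sequenced in 1 pooled library, and the tag library held tags only. The authors used HISAT2 2.2.1 for alignment to Macaca fascicularis (build not given in the sources used here), assigned reads to genes with strand and with multi-mapped reads allowed using featureCounts 2.0.2 (versions from the submitters' processing notes), and deposited the counts of each gene in each cell as whole numbers, without molecular identifiers or normalization. The counting keeps PCR copies, and near-identical genes can share reads. A matrix with 1358 cell columns that the labels do not list was not used.

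Cells with a single tag, 200 to 9000 genes and under 5% of reads on 13 mitochondrial genes were kept (21 were removed). Barcodes with several tags (42) or none (7) were left out, and no doublet caller was run, so doublets within a tag remain. Counts were pooled to rpm. In a ratio, a group with under 3 reads was set to 3. Reads per kept cell ranged from 24907 to 1290096. Python 3.11.15, numpy 2.4.6, scipy 1.17.1, pandas 2.3.3 and matplotlib 3.10.9 were used, and the calculations were tested on simulated data.

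The genes, the pathway list, the markers and the gate were chosen with earlier results of these data known. The text names the set, pathway genes past 2-fold with a few of the others of the list for contrast, the 3 genes most correlated with each, the markers, and the genes used to divide cells. Of the 41 markers, 32 were in the matrix, and the 3 of red blood cells were not analysed here. Alternatives were other gates, cell filters, levels, totals, floors, depth, and leaving out each tag. Leaving out the 1% of cells with the most reads, the 85 cells positive for 1 gate gene, and centring on the median were chosen after seeing the data.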

Additional observations from a re-analysis of the deposited data

Results flagged for a closer look

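The 49 barcodes with several tags (42) or no tag (7), which entered no comparison, held reads of all 7 genes, at levels above what a count of 0 allows, and 0 of them passed the gate for NCs. Their pooled levels were 5446 rpm for *ACAN*, 2041 rpm for *HAPLN1*, 319.7 rpm for *HAS2*, 259.6 rpm for *CD44*, 66.5 rpm for *HAPLN3*, 43.2 rpm for *VCAN* and 4.71 rpm for *HAS3*. The 42 barcodes with several tags had 301.2 rpm of *CD44* and the 7 without a tag 93.6 rpm.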

How the results depend on the processing

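Under 16 of 18 alternatives 2 of the 6 genes were higher and 4 lower, as at the settings used. With 1 or more reads of *KRT19* and of *TBXT* as the gate (408 cells), 2 were lower, since *HAPLN1* (log2 ratio -0.88) and *HAPLN3* (-0.58) were no longer past 2-fold, and on means of log2(rpm + 1) 3 were lower, without *HAPLN3* (-0.85). The cause was not tested. No gene of the 6 changed sign. Leaving out each tag gave 2 higher and 4 lower, or 6 in all, each time, and *VCAN* ranged from -4.98 (without A953) to -2.64 (without A952). Over all 18 alternatives the log2 ratio ranged from 1.37 to 1.95 for *ACAN*, 1.48 to 4.01 for *CD44*, -2.61 to -0.88 for *HAPLN1*, -1.63 to -0.58 for *HAPLN3*, -3.33 to -1.36 for *HAS2* and -5.28 to -1.52 for *VCAN*. Looser gates moved *VCAN* and *HAS2* most. With 5 reads of the gate genes added together (404 cells) they were -1.82 and -1.91, and with 5 reads of either (395 cells) -2.50 and -1.98. For *HAS3* the sign changed with the setting (-0.38 to 0.99).

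Scaling moved the split of all genes. Of the genes past 2-fold, 68.3% were higher at the settings used, 60.6% when the 20 genes with the most reads were left out of the total (a shift of -0.16 in every log2 ratio), and 52.4% when the ratios were centred on their median of 0.30, with 2 and 4 of the set past 2-fold each time. The ratios within A951 and within A952 set NCs beside other cells of the same tag, but with 1 library no paired test was made. One library of 2 animals, with NCs almost wholly in 2 tags, limits every value here.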
